A study of Bos taurus with 6 samples.

Results

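The let-7 family was followed in granulosa cells of bovine preovulatory dominant follicles and subordinate follicles. Its members were taken by name, as every known bovine miRNA whose name starts with bta-let-7 together with bta-miR-98, which gave 10 of the 755 mature miRNA names in the count files. They were bta-let-7a-5p, bta-let-7a-3p, bta-let-7b, bta-let-7c, bta-let-7d, bta-let-7e, bta-let-7f, bta-let-7g, bta-let-7i and bta-miR-98. These names occupied 14 of the 906 rows, since a row pairs a mature miRNA with 1 of its precursors, and the family has 12 precursors.

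The let-7 miRNAs are small RNAs of about the same length that share their seed, the stretch near the 5′ end that pairs with target messenger RNAs, and differ by only a few bases elsewhere. Bta-miR-98 has the same seed and is counted as a member of the family under another name, whereas bta-let-7a-3p is the opposite arm of a let-7a hairpin and has another seed. The family is low in stem cells, where the protein LIN28 binds the hairpins and blocks their maturation, and high in differentiated tissues. Its best known targets include messages for growth and cell cycle proteins such as RAS, MYC and HMGA2. Many let-7 genes lie in clusters with other miRNA genes and can be transcribed together with them.

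Granulosa cells are the somatic cells that surround the oocyte inside a follicle. All 6 libraries came from synchronized Simmental heifers whose ovaries were collected after slaughter on day 19 of their estrous cycle. By diameter, follicles were sorted into the large preovulatory dominant class (3 libraries) and the smaller subordinate class (3 libraries). The same animals gave both classes, with far fewer dominant than subordinate follicles, and the RNA was pooled before library preparation, so a library is a pool and not an animal. Library totals, counting each mature miRNA once, lay between 190385 and 364125 reads, and 3 reads, the limit that a count of 0 allows, were worth between 8.86 and 13.9 CPM. CPM here are edgeR's counts scaled to a common library size after TMM normalization, which corrects that size for a few very abundant miRNAs. All 10 members had reads in every library.

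The same 3 members were the most abundant in both groups, in different orders. In preovulatory dominant follicles bta-let-7a-5p was the most abundant member with 11607, 7367 and 13541 reads, followed by bta-let-7f with 9917, 6716 and 12153 and bta-let-7i with 8790, 6681 and 10616. In subordinate follicles bta-let-7f came first with 13946, 13706 and 12341 reads, and the values of bta-let-7a-5p were 11507, 11593 and 9911. Bta-let-7f was thus above bta-let-7a-5p in 3 of 3 subordinate libraries, and the reverse held in 3 of 3 dominant libraries.

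Below these isoforms came bta-miR-98, bta-let-7g, bta-let-7b, bta-let-7c, bta-let-7e and bta-let-7d in descending order of the mean read count in preovulatory dominant follicles, from 2822.3 ± 911.9 to 340.0 ± 27 reads (SD, n = 3). A further 2 pairs of neighbours stood in the other order in subordinate follicles, bta-let-7g (2592.3 reads) being above bta-miR-98 (2062 reads) and bta-let-7c (1504 reads) above bta-let-7b (1309.7 reads). Not all of these steps exceeded the spread between libraries. The read ranges of bta-let-7i, bta-let-7f and bta-let-7a-5p overlapped in preovulatory dominant follicles, as did those of bta-miR-98, bta-let-7g and bta-let-7b and those of bta-let-7b and bta-let-7c. In subordinate follicles the ranges of bta-let-7a-5p and bta-let-7i overlapped, as did those of bta-let-7g and bta-miR-98 and those of bta-let-7c and bta-let-7b. Bta-let-7a-3p was the rarest member, with 27.3 ± 1.53 reads in preovulatory dominant and 34.3 ± 16.8 reads in subordinate follicles (SD, n = 3). Adapter ligation depends on the sequence, so the order is one of read counts rather than of molecules in the cell. Since the isoforms differ by few bases, a read with a mismatch can be counted on a near-identical isoform, and how the counting settled such reads is not given in the sources used here.

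**Figure D1:**
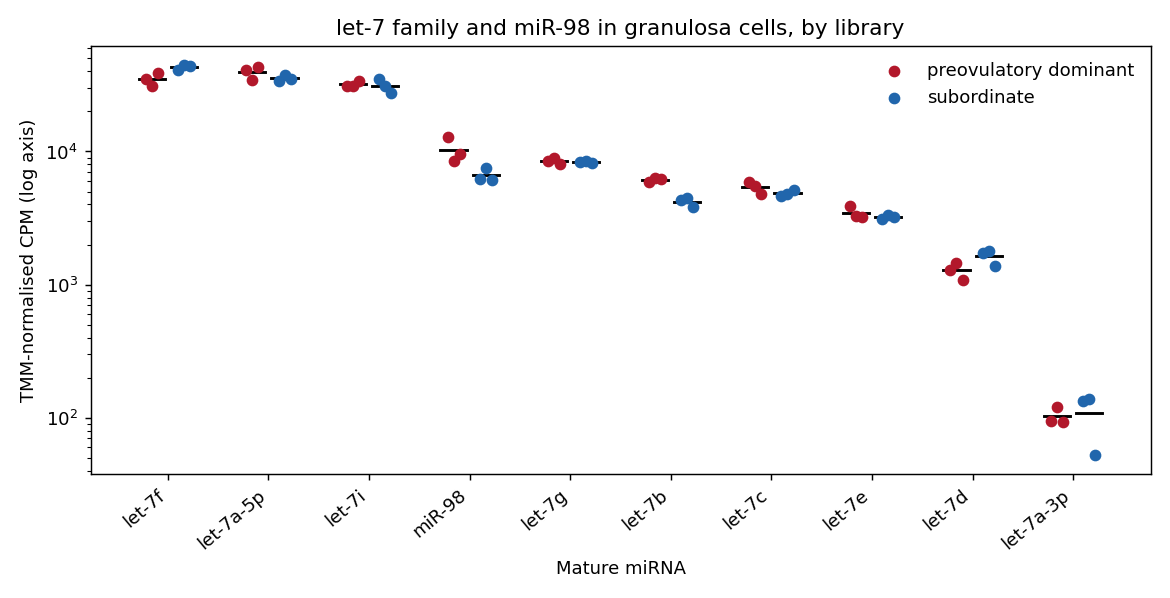
TMM-normalised CPM (log axis) of the 10 members in each of the 3 preovulatory dominant (red) and 3 subordinate (blue) libraries, with black lines at the group means. The red and blue points are apart for bta-miR-98, bta-let-7b and bta-let-7f, and overlap for the other 7 members.

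Bta-let-7b and bta-miR-98 were higher in preovulatory dominant follicles, and no member was lower at the same threshold. Bta-let-7b had 5854, 6373 and 6228 CPM in the dominant libraries against 4312, 4457 and 3850.0 CPM in the subordinate ones. The groups did not overlap, and the mean was 1.46-fold higher in preovulatory dominant follicles (log2 fold change 0.55 with a standard error of 0.15, and adjusted p = 0.0375 by edgeR). Leaving out subordinate replicate 1 gave a log2 fold change of 0.57 with an adjusted p of 0.116.

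The values of bta-miR-98 were 12851, 8535 and 9505 CPM in the dominant libraries against 6249, 7578.5 and 6094 CPM in the subordinate ones. Dominant replicate 1 was the highest, and every dominant library was above every subordinate one, although the raw reads (1840 to 3642 against 1727 to 2343) overlapped. The fold change was 1.55 (log2 fold change 0.63 with a standard error of 0.20, and adjusted p = 0.0484 by edgeR). This call was lost when dominant replicate 1, subordinate replicate 1 or subordinate replicate 3 was left out, with log2 fold changes of 0.44, 0.59 and 0.57 and adjusted p-values of 0.177, 0.153 and 0.114.

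Both differences were smaller than the 2-fold threshold of the study, which called a miRNA whose log2 fold change was 1 or more in size, with p up to 0.05 and a false discovery rate up to 0.1. At these thresholds 0 of the 10 members were called by edgeR, beside 21.5% of the 353 miRNAs tested, and 0 by DESeq2, beside 26.9% of the 253 to which it gave an adjusted p. At an unadjusted p under 0.05 edgeR gave 2 members, beside 33.4% of all miRNAs. With the false discovery rate alone, 2 of 10 members passed beside 30.3% of all miRNAs. Both were higher in preovulatory dominant follicles, where the share over all miRNAs was 16.1%, and 0 members were lower, where it was 14.2%. The share of members that passed was thus not above that of miRNAs in general, nor above the 44.7% that passed among the 94 miRNAs averaging 100 reads or more in both groups. In size the members moved less, with a median absolute log2 fold change of 0.15 against 0.75 over all miRNAs tested and 0.48 over these 94. The signed median was 0.07 for the members and -0.20 over all miRNAs. Between the groups 3 of the 10 members did not overlap in CPM, beside 36.8% of all miRNAs.

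Bta-let-7f and bta-let-7d had lower values in preovulatory dominant follicles that did not pass the test. Bta-let-7f had 34993, 31152 and 38699 CPM in the dominant and 41184, 44332.5 and 43550 CPM in the subordinate libraries. The groups were apart, with a log2 fold change of -0.30 (95% interval -0.61 to 0.01) and an adjusted p of 0.159. For bta-let-7d the values were 1291, 1452 and 1086 CPM against 1742, 1776 and 1390.4 CPM, and subordinate replicate 3 lay within the dominant range. Between libraries of the same replicate number the dominant one was lower in 3 of 3. Its log2 fold change was -0.36 (95% interval -0.81 to 0.10, adjusted p = 0.241, and 0.228 with the replicate block).

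For the remaining members the intervals of the difference lay around 0. Bta-let-7g had the closest group means, with 8465, 8873 and 8085 CPM against 8301, 8507 and 8243 CPM and a log2 fold change of 0.02 (95% interval -0.30 to 0.34), whose sign turned relative to the family sum (-0.00029) and with summed precursor rows (-0.0092). For bta-let-7i, whose highest and lowest library were both subordinate (34811 and 27508 CPM), it was 0.04 (95% interval -0.29 to 0.36). The log2 fold changes of bta-let-7a-5p, bta-let-7c and bta-let-7e were 0.15, 0.15 and 0.10, with upper bounds of 0.47, 0.51 and 0.47. Bta-let-7a-5p passed when libraries were scaled by total count (0.36, adjusted p = 0.0831), a scaling that moved the median of all miRNAs from -0.20 to -0.01. A 2-fold difference in either direction was outside the intervals of these 5 members, whereas smaller ones up to these bounds were not.

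**Figure D2:**
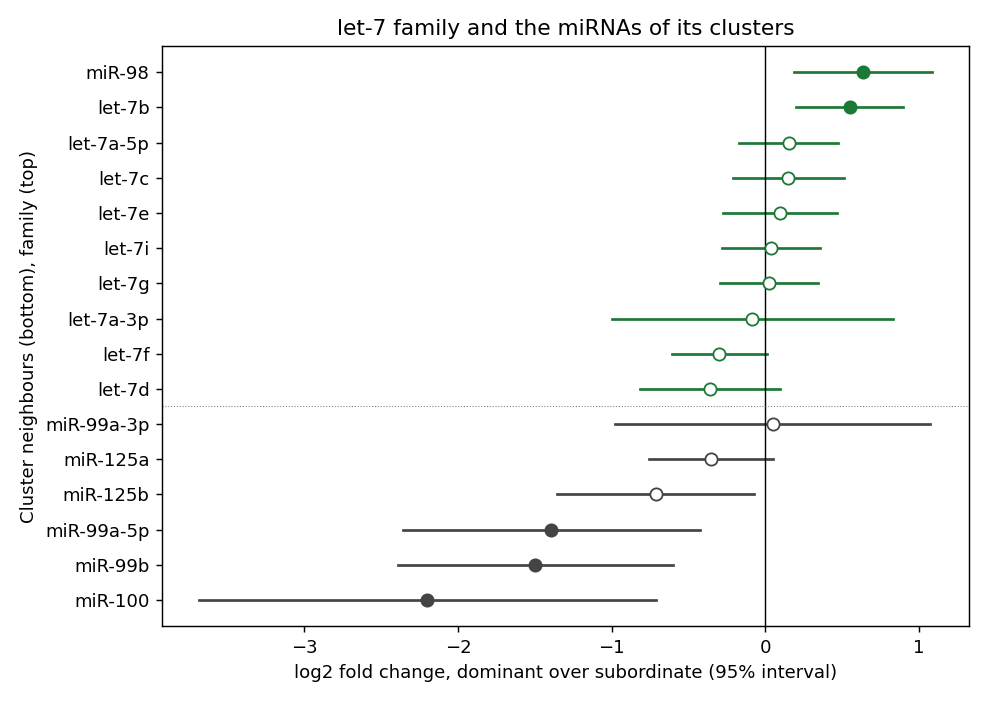
Log2 fold change of preovulatory dominant over subordinate follicles with its 95% interval from edgeR, for the 10 members (green, top) and 6 miRNAs of the same clusters (grey, bottom); filled points have a false discovery rate of at most 0.1. Bta-miR-98 and bta-let-7b are filled on the right of 0, and bta-miR-99a-5p, bta-miR-99b and bta-miR-100 are filled on the left.

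The 9 members other than bta-let-7a-3p were summed as a share of the reads of known miRNAs, each mature miRNA being counted once. This family share was 15.8, 14.8 and 15.0% in the dominant libraries and 14.2, 12.2 and 12.4% in the subordinate ones. The groups did not overlap, at 15.2 ± 0.571% and 12.9 ± 1.11% (SD, n = 3). The 95% Wilson interval of each share, which covers counting error only, reached at most 0.159 percentage points to either side. A share falls when other miRNAs take more of a library. On the TMM scale the family sum was 145157, 130303 and 148569 CPM in the dominant libraries and 138346, 143435 and 133949 CPM in the subordinate ones. There the groups overlapped, and the highest library exceeded the lowest by a factor of 1.14.

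Within the family, bta-let-7f had the largest difference in share, in percentage points, of the 9 isoforms. It made up 24.1, 23.9 and 26.0% of family reads in the dominant libraries against 29.8, 30.9 and 32.5% in the subordinate ones, a difference of -6.38 percentage points between the means. The share of bta-miR-98 was 8.85, 6.55 and 6.40% against 4.52, 5.28 and 4.55%, and that of bta-let-7b was 4.03, 4.89 and 4.19% against 3.12, 3.11 and 2.87%. Bta-let-7a-5p took 28.2, 26.2 and 29.0% against 24.6, 26.1 and 26.1%, where the lowest dominant and the highest subordinate library nearly touched. These 4 of the 9 shares did not overlap between the groups, the last 3 being higher in preovulatory dominant follicles, and each gave p = 0.1 in the two-sided exact permutation test, the smallest that 3 libraries against 3 allow. In CPM, 36.8% of all miRNAs and 53.2% of the 94 averaging 100 reads or more in both groups had no overlap. Separation was thus not rare, although CPM and shares are unlike measures. The 9 shares add up to the whole family, so a lower share of bta-let-7f raises others, and the 4 are not independent. With precursor rows summed, the differences in mean share kept their direction but moved from 2.22 to 4.23 percentage points for bta-let-7a-5p, from 1.34 to 0.78 for bta-let-7b and from 2.48 to 1.44 for bta-miR-98. That sum adds up 3 nearly equal rows for bta-let-7a-5p and 2 rows for bta-let-7f, but 1 row each for bta-let-7b and bta-miR-98. It thus weights the isoforms by their number of rows.

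The shares of bta-let-7c, bta-let-7d, bta-let-7e, bta-let-7g and bta-let-7i overlapped, with exact permutation p-values between 0.2 and 1. Bta-let-7g made up 6.03 ± 0.705% and 6.03 ± 0.114% of family reads and bta-let-7i 22.6 ± 1.21% and 22.5 ± 2.41% (SD, n = 3 each, preovulatory dominant first). Counting error was at most 0.514 percentage points to either side (95% Wilson interval). Bta-let-7f, bta-let-7i and bta-let-7a-5p together made up between 73.7 and 79.5% of family reads in every library. With the family sum in place of the library size in the edgeR fit, so that each fold change was relative to the family, bta-let-7f passed as lower (log2 fold change -0.33, adjusted p = 0.0849), bta-let-7b as higher (0.53, adjusted p = 0.0503) and bta-miR-98 as higher (0.60, adjusted p = 0.0455).

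**Figure D3:**
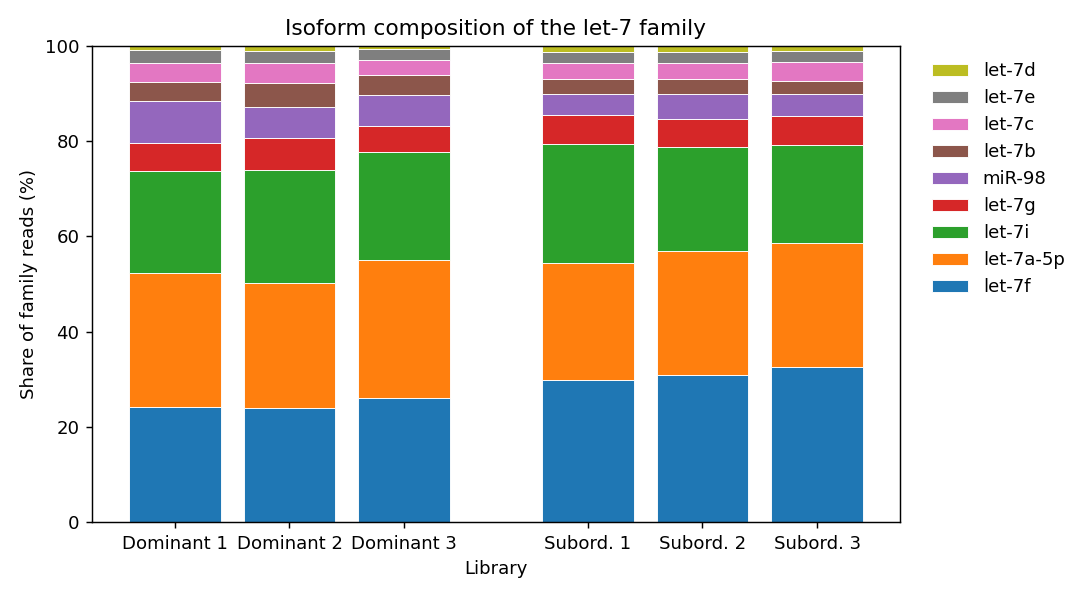
Share of each of 9 members in the reads of the family, in percent, stacked for each of the 6 libraries. The bottom segment, bta-let-7f, fills 23.9 to 26.0% of the dominant and 29.8 to 32.5% of the subordinate bars, and the purple bta-miR-98 segment is larger in the dominant bars.

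A ratio of 2 miRNAs within a library does not depend on normalization. The log2 ratio of bta-let-7f to bta-let-7a-5p was lower in preovulatory dominant than in subordinate follicles by 0.45 on average, without overlap (exact permutation test, two-sided, p = 0.1). Of the 36 pairs among the 9 members, 21 (58.3%) had ratios that did not overlap between the groups, beside 52.9% of the 4371 pairs of miRNAs averaging 100 reads or more in both groups. Bta-let-7b and bta-let-7f were each apart in 7 of their 8 pairs and bta-miR-98 in 6, whereas bta-let-7a-5p, bta-let-7c and bta-let-7e were apart in 3 of 8.

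The genes of these miRNAs lie in several places, and all 12 precursors were found in the RefSeq annotation of the ARS-UCD2.0 assembly. It is not the assembly the reads were mapped to, UMD3.1, so that no coordinates are given and distances are those of ARS-UCD2.0. Within 10 kb of each other lie let-7a-1, let-7f-1 and let-7d, then let-7a-3 and let-7b, and let-7f-2 and mir-98, which lie in or next to HUWE1, a ubiquitin ligase gene. Let-7g lies in or next to WDR82, and no other annotated miRNA gene is within that distance of let-7g or let-7i. Bta-let-7a-5p can thus arise from 3 loci and bta-let-7f from 2, while bta-let-7b, bta-let-7d and bta-miR-98 each have 1 precursor.

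The let-7f genes have different neighbours. Bta-miR-98, beside let-7f-2, was higher in preovulatory dominant follicles, and bta-let-7d, beside let-7f-1, had a lower mean that did not pass the test. The log2 ratio of bta-let-7d to bta-miR-98, after adding 1 read to each as in the other partner ratios, was -3.31, -2.55 and -3.13 in the dominant and -1.84, -2.09 and -2.13 in the subordinate libraries, without overlap (two-sided exact permutation test, p = 0.1). Between bta-let-7d and bta-let-7f the log2 ratios overlapped, at -4.78 ± 0.37 and -4.72 ± 0.21 (SD, n = 3 each; exact permutation test, p = 0.9), whereas the ratio of bta-miR-98 to bta-let-7f was -1.78 ± 0.30 and -2.70 ± 0.15 (SD, n = 3 each; exact permutation test, p = 0.1). The log2 ratio of bta-let-7b to bta-let-7a-5p, whose let-7a-3 precursor is its cluster partner, was -2.67 ± 0.22 against -3.08 ± 0.10 (SD, n = 3 each; exact permutation test, p = 0.1), but bta-let-7a-5p also comes from the other 2 loci.

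The same mature miRNA could have different counts under different precursors. For bta-let-7f the let-7f-2 row held more reads than the let-7f-1 row in all 6 libraries. In the let-7f-1 row the dominant libraries had 8616, 5921 and 10421 reads and the subordinate ones 12525, 12481 and 11031. The net excess of the let-7f-2 row was 1301, 795 and 1732 reads in the dominant and 1421, 1225 and 1310 in the subordinate libraries. As a share of the let-7f-2 row this was 13.1, 11.8 and 14.3% against 10.2, 8.94 and 10.6%, so it was higher in each dominant library, with a counting error of at most 0.773 percentage points (95% Wilson interval). How a read was assigned to rows is not given in the sources used here, so the gap is a property of the rows and not a measure of how much either locus made.

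For bta-let-7a-5p the 3 precursor rows were nearly equal. The let-7a-1 row exceeded the let-7a-2 row by 43, 18 and 28 reads in the dominant libraries and by 12, 11 and 15 in the subordinate ones, which is 0.370, 0.244 and 0.207% against 0.104, 0.0949 and 0.151% of the row. It exceeded the let-7a-3 row by 15 to 40 reads. Such a gap between rows was apart between the groups in 46.7% of the 15 miRNAs with differing rows that averaged 100 reads or more in both groups, both let-7 miRNAs being among them. The rows of bta-let-7a-3p under let-7a-1 and let-7a-3 were identical in every library.

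Well known miRNAs of the let-7 clusters were compared with their let-7 partners. The list held bta-miR-99a-5p, bta-miR-99a-3p and bta-miR-125b, which are known to be clustered with let-7c, bta-miR-99b and bta-miR-125a with let-7e, and bta-miR-100 with let-7a-2. Of these 6 miRNAs, 3 were lower in preovulatory dominant follicles at a false discovery rate of at most 0.1 and 0 were higher, beside 14.2% and 16.1% of all miRNAs, and the median log2 fold change was -1.05. The list left out bta-miR-2443 and bta-miR-3596, annotated within 10 kb of let-7a-3 and let-7b, which were added after their values were seen. Bta-miR-2443 had between 0 and 5 reads per library (log2 fold change -0.03, adjusted p = 0.981) and bta-miR-3596 had 0 in all 6, so that 3 of the 7 tested were lower and the median became -0.71. Bta-miR-125b is in the list from general knowledge of the let-7c cluster, and its gene was not among those within 10 kb of let-7c. For bta-miR-99b the dominant libraries had 18455, 15075 and 9566 CPM and the subordinate ones 28574, 25769.5 and 67335 CPM (log2 fold change -1.50, standard error 0.39, adjusted p = 0.0294). Its partner bta-let-7e had 3874, 3261 and 3226 CPM against 3133, 3357 and 3201 CPM, a range that was shared by the groups.

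Bta-miR-99a-5p had 2915, 2226 and 2407 CPM against 4176, 3703.5 and 11945 CPM (log2 fold change -1.39, adjusted p = 0.0464), beside 5854, 5497 and 4818 CPM against 4633, 4809.7 and 5138 CPM of its partner bta-let-7c. For bta-miR-100 the values were 603, 533 and 564 CPM against 1072, 964 and 5791 CPM (log2 fold change -2.20, adjusted p = 0.0420). Subordinate replicate 3 was far above the other libraries for these 3 miRNAs. Without it the log2 fold changes were -0.92, -0.65 and -0.84 for bta-miR-99b, bta-miR-99a-5p and bta-miR-100, and all 3 still passed. Without dominant replicate 1 or 2, 1 and 0 of the 6 neighbours passed. Bta-miR-125b (log2 fold change -0.71, adjusted p = 0.107), bta-miR-125a (-0.35) and the rare bta-miR-99a-3p (0.05, adjusted p = 0.934) did not pass.

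The proportion of these partners was then followed within each library. The log2 ratio of bta-let-7e to bta-miR-99b was -2.25, -2.21 and -1.57 in the dominant libraries and -3.19, -2.94 and -4.39 in the subordinate ones. That of bta-let-7c to bta-miR-99a-5p was 1.01, 1.30 and 1.0 against 0.15, 0.38 and -1.22, and that of bta-let-7c to bta-miR-125b was 0.59, 0.59 and 0.67 against 0.19, 0.01 and -0.72. Each of these 3 ratios was higher in every dominant than in every subordinate library (two-sided exact permutation test, p = 0.1), and subordinate replicate 3 was the lowest in each. The same held for bta-let-7a-5p to bta-miR-100, at 6.08, 5.99 and 6.25 against 4.98, 5.28 and 2.59. Bta-miR-125b was counted under 2 precursors and bta-let-7a-5p under 3, so the ratios with them do not compare products of a single cluster. The ratio of bta-let-7e to bta-miR-125a overlapped between the groups (two-sided exact permutation test, p = 0.2). Of the 4371 pairs of miRNAs averaging 100 reads or more in both groups, 52.9% had ratios without overlap, so such a separation was not rare. These ratios rest on the same counts as the fold changes above and are not a further test.

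**Figure D4:**
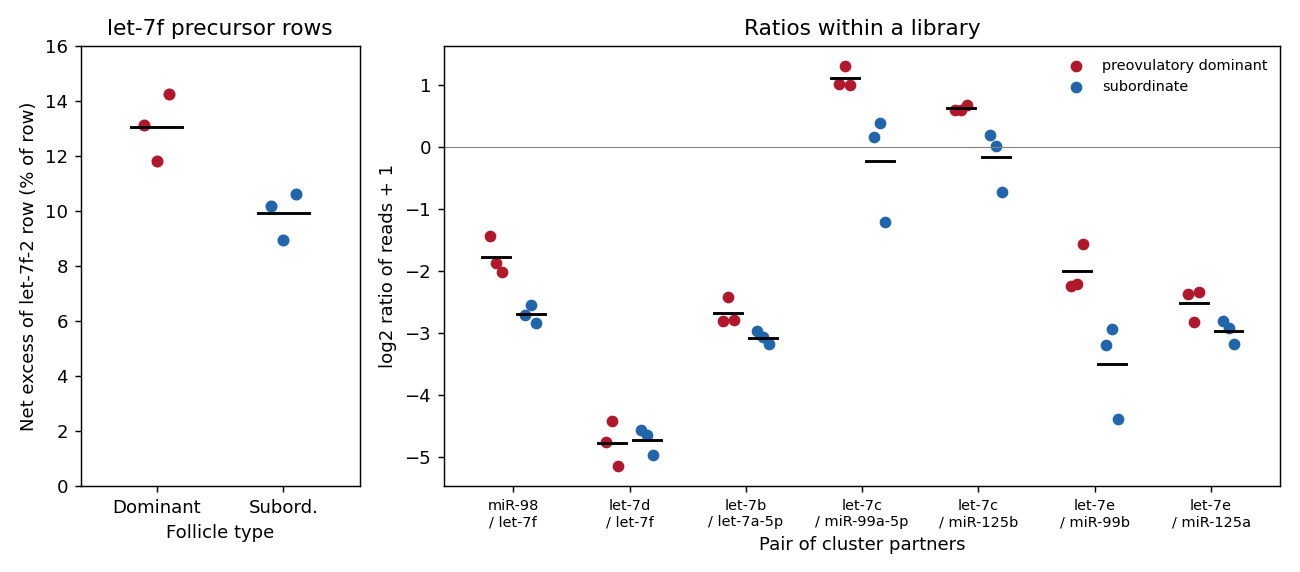
Left, net excess of the let-7f-2 over the let-7f-1 row as a percentage of the let-7f-2 row; right, log2 ratio of reads + 1 of cluster partners within each library, with preovulatory dominant libraries in red, subordinate libraries in blue and black lines at the means. The ratios of bta-let-7d to bta-let-7f overlap, at means of -4.78 and -4.72, whereas those of bta-miR-98 to bta-let-7f are apart, at -1.78 and -2.70.

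The 3p arm of let-7a was a minor product in both follicle types. The dominant libraries had 27, 26 and 29 reads of bta-let-7a-3p and the subordinate ones 45, 43 and 15, replicate 3 being the lowest of all. It made up 0.232, 0.352 and 0.214% of the reads of both arms in the dominant and 0.390, 0.370 and 0.151% in the subordinate libraries. Bta-let-7a-3p was counted under let-7a-1 and let-7a-3 only, whereas bta-let-7a-5p was also counted under let-7a-2. The arms compared are thus not strictly those of the same hairpins. The 95% Wilson intervals reached from 0.0916 to 0.521% over the 6 libraries. Those of subordinate replicates 1 and 3 did not overlap, so the pools differed beyond counting error within a group. The log2 ratio of the arms overlapped between the groups (two-sided exact permutation test, p = 0.8). In the fit over all miRNAs its log2 fold change was -0.09 (95% interval -1.0 to 0.83), the widest interval in the family, and it was 0.12 with scaling by total count.

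Other cell types that a granulosa cell pellet can carry were followed by marker miRNAs. The red blood cell markers bta-miR-451, bta-miR-486 and bta-miR-144 summed to between 1048 and 13091 CPM in preovulatory dominant and between 808 and 1530 CPM in subordinate follicles. Of these, 2 of 3 passed as higher in preovulatory dominant follicles, beside 16.1% of all miRNAs. The high libraries were dominant replicates 1 and 2 (13091 and 8247 CPM), and bta-miR-144 was at 0 in replicate 3 of both groups. The sum of dominant replicate 3, 1048 CPM, lay within the subordinate range. In dominant replicates 1, 2 and 3 bta-miR-98 was at 12851, 8535 and 9505 CPM. Replicate 1 was highest for both bta-miR-98 and the red blood cell sum. Replicate 2 was above replicate 3 in that sum but below it in bta-miR-98. Bta-let-7b was at 5854, 6373 and 6228 CPM in these libraries.

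White blood cell markers (bta-miR-142-5p, bta-miR-223 and bta-miR-150) summed to between 258 and 1112 CPM against 408 and 558 CPM. In either direction 0 of 3 passed, beside 30.3% of all miRNAs. Those of endothelium (bta-miR-126-5p and bta-miR-126-3p) summed to between 73.2 and 293 CPM in preovulatory dominant and between 354 and 540 CPM in subordinate follicles. Both were lower in every dominant than in every subordinate library, where 36.8% of all miRNAs had no overlap. Their log2 fold changes were -1.25 and -1.09. The adjusted p-values of 0.113 and 0.105 by edgeR were just above the threshold, so that 0 of 2 passed. Theca and stroma markers (bta-miR-143, bta-miR-145, bta-miR-199a-5p, bta-miR-199a-3p and bta-miR-214) summed to between 17603 and 27823 CPM against 21064 and 35751 CPM. Among them 1 of 5, bta-miR-214, passed as lower in preovulatory dominant follicles, beside 14.2% of all miRNAs. The part of these cells in the differences of bta-let-7b, bta-miR-98 and bta-let-7f was not tested. The files hold no messenger RNA, so the granulosa label could not be checked here against its own markers. By PCR the study found the granulosa marker FSHR strongly and the theca marker CYP17A1 only negligibly in all samples. In pooled cells fewer cells of a type cannot be told apart from less RNA per cell.

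Several members varied little over the 6 libraries. Among the 94 miRNAs averaging 100 reads or more in both groups, bta-let-7g had the smallest SD of log2 CPM (0.05), bta-let-7e, bta-let-7i, bta-let-7c and bta-let-7a-5p ranked 3, 4, 6 and 7 from the smallest (0.11 to 0.14), and the median was 0.36. Bta-let-7f ranked 14, bta-let-7d 26, bta-let-7b 36 and bta-miR-98 59. This order depends on the TMM scale, to which the abundant members contribute.

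The miRNAs outside the family whose profile was most like the family sum were bta-miR-23b-3p, bta-miR-16a, bta-miR-27a-3p, bta-miR-191 and bta-miR-342. Likeness was the root mean square difference over the 6 libraries between log2 CPM values centred on their means, and it ran from 0.09 for bta-miR-23b-3p to 0.17 for bta-miR-342. Their log2 fold changes lay between 0.02 and 0.17. Bta-miR-191, often used as a reference miRNA, was the most abundant of them with 7700.3 reads in preovulatory dominant and 8563 reads in subordinate follicles on average.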

How the data were processed

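Small RNA of granulosa cells was sequenced in 3 libraries of preovulatory dominant and 3 of subordinate follicles, grouped by the sample labels. The deposited files hold raw counts. Before counting, the authors removed adapters (Cutadapt, Seqtk) and mapped reads with Bowtie to the bovine genome (UMD3.1), and they counted them on miRBase miRNAs in the miRDeep2 workflow, without normalization. Read assignment settings are not given in the sources used here.

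From these, the largest precursor row of each mature miRNA was kept. The 353 miRNAs that had 1 read or more in 2 or 3 libraries of either group were tested with edgeR 4.0.16 in R 4.3.3 (TMM, quasi-likelihood, Benjamini-Hochberg over all 353), without a block. Standard errors are the log2 fold change over the square root of F. DESeq2 1.42.0, other scalings, filters and left-out libraries were alternatives. Single values were compared by exact permutation tests in scipy 1.17.1. On simulated data, where 200 of 353 miRNAs differed by 2 on the log2 scale, 79.5% were recovered, 99.2% with a mean of at least 10 reads. The largest log2 fold change among the members was 0.63, so this recovery does not apply to differences of their size. The labels number replicates alike in both groups. Deviations from the group means correlated at r = 0.132, 0.381 and 0.317 over 109 miRNAs between same-numbered libraries. Taking deviations from the mean of 3 libraries ties the values within a group, so such correlations are not independent of each other. For dominant replicate 1 the correlation with subordinate replicate 2 was as high (r = 0.144), and other cross-numbered pairs lay between -0.324 and 0.0499. A fit with the replicate block was made. The p-values set a group difference against the spread between pools and do not cover that between animals. The named miRNAs are all members, their cluster neighbours, the markers and the 5 most similar profiles. Members and lists were chosen with earlier results of these data known. Sequences were not used here.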

Additional observations from a re-analysis of the deposited data

How the results depend on the processing

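Other scalings, filters and tools changed few results. With a library left out, bta-let-7b no longer passed in 1 fit and bta-miR-98 in 3. With the replicate block 2 members still passed, bta-let-7b at a log2 fold change of 0.55 (adjusted p = 0.0720) and bta-miR-98 at 0.62 (adjusted p = 0.0914), and the paired fit changed no call among the members. Over all miRNAs it moved the number called from 76 to 71 and that at a false discovery rate of at most 0.1 from 107 to 99. Bta-let-7b and bta-miR-98 also passed under every other scaling, filter and tool run. The number passing ran from 0 to 2 over the left-out libraries. It was 0 without subordinate replicate 1 and 1 without dominant replicate 1 or subordinate replicate 3. For the 6 cluster neighbours, an alternative chosen after seeing the data, the number ran from 0 to 4, with 0 without dominant replicate 2 and 1 without dominant replicate 1. Scaling by total count moved the median log2 fold change of all miRNAs from -0.20 to -0.01. It brought bta-let-7a-5p past the threshold (0.36, adjusted p = 0.0831) and turned bta-let-7a-3p to 0.12. Values close to 0 changed sign. Bta-let-7g became -0.00029 relative to the family sum and -0.0092 with summed precursor rows, which also turned its share difference to 0.0468 percentage points and moved those of bta-let-7a-5p, bta-let-7b and bta-miR-98 to 4.23, 0.78 and 1.44. Over the left-out libraries the log2 fold change of bta-let-7a-3p ran from -0.41 to 0.13 and that of bta-let-7i from -0.0457 to 0.12. The group difference of the let-7a arm ratio ran from -0.12 to 0.53. The share differences ran from -0.39 to 0.29 percentage points for bta-let-7g and from -0.79 to 1.52 for bta-let-7i. The causes were not tested. The family share difference kept its direction, from 1.91 to 3.39 percentage points. With 15 to 45 reads per library, bta-let-7a-3p had the widest interval of the members.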
